A study of Bombyx mori with 4 samples.

Results

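The regions described here are stretches of accessible chromatin that both fat body libraries of the silkworm Bombyx mori had in common. Peaks of 4 ATAC-seq libraries were merged wherever they overlapped by 1 bp or more, and a merged region was kept if it held a peak of fat body 1 and a peak of fat body 2, whatever the brain lists showed. This gave 5586 of 130309 merged regions, or 4.29%, which together covered 4.48 Mb. Fat body 1 and fat body 2, and likewise brain 1 and brain 2, are the wild-type larval libraries of strain P50 numbered 1 and 2 in their titles. All are titled with the stage code L5D3, and nothing in the labels tells whether libraries 1 and 2 are from different animals. Differences between libraries of 1 tissue may thus be technical. From each library 50000 nuclei were cut by a pA-Tn5 transposome.

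ATAC-seq reads pile up where the transposase can reach DNA, typically at promoters, enhancers and other regulatory elements that are free of nucleosomes. A peak is a stretch with more reads than its surroundings, and its summit is the base with the highest pile-up. The fat body does the work that liver and adipose tissue share in vertebrates: it makes storage proteins and yolk precursors, holds glycogen and triglyceride, and secretes immune peptides. Regions open in fat body alone are where regulation of such genes would be sought, whereas regions open in fat body and brain commonly include promoters of genes that most cells use. No gene models of the build that the lists use were at hand, so the regions are given by position, the labelled tissues could not be checked against marker genes, and DNA sequences of the regions were not analysed here.

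The lists differed before any comparison. The list of fat body 1 held 107057 mostly narrow peaks (median 166 bp), and that of fat body 2 held 14752 broader ones (median 637 bp). Peak names carry the stage code 5L-4D in brain 1, 5l3d in brain 2 and fat body 1, and L5D3 in fat body 2, so the day of brain 1 is uncertain. They also carry a p threshold of 1e-05 in 3 lists and a q threshold of 1e-05 in fat body 2. Fold enrichment, p and q are the authors' values for 1 library each. Here they only describe and rank peaks within a list. The regions were chosen by which summits passed those p or q thresholds in both fat body lists, so all fat body values below are descriptions and carry no test. Intervals are exact binomial 95% intervals. They cover counting error only, because regions are no replicates of a tissue.

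The regions held 37.99% of the peaks of fat body 2 (5605 peaks, interval 37.2 to 38.8) and 5.98% of those of fat body 1 (6407 peaks, 5.84 to 6.13). The shares differ because the lists differ in length. In 3872 regions (69.3%) the shorter peak lay wholly inside the longer one. At the edge of the rule, 73 regions rested on an overlap of 1 to 10 bp, while 36 peaks of fat body 2 outside the regions had a peak of fat body 1 less than 10 bp away. In 105 regions (1.88%) the fat body peaks did not touch each other and were joined through a brain peak. Calling fat body from 1 library would give 14724 regions without fat body 1 and 103904 without fat body 2. With the 11572 best peaks of every list, 1838 regions remained.

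The regions were divided by strength in fat body 1 alone. Its strongest part had close summits, and over the larger rest the ranks in the fat body libraries were unrelated. Strength in fat body 2 overlapped widely between these classes, with median within-list percentiles of −log10 q of 65.2 and 50.7. The highest −log10 q of fat body 2, 3585, lay in the larger class. The fat body 1 list was ordered by −log10 q and divided into 10 equal parts. The strongest part supplied 1958 regions (35.1%), whereas each of the lower 9 parts supplied between 342 and 448. Of the fat body 1 peaks in the strongest part, 19.4% lay in regions of both libraries (18.7 to 20.2), against 3.75% to 4.80% in the lower 9 parts. The weakest part, at 4.80% (4.40 to 5.22), was therefore no lower than the part next to the strongest, at 3.75% (3.40 to 4.13). Best fat body 1 peaks in the regions were a median of 364.5 bp wide in the strongest part and 177 bp in the lower 9. The part of peak width in these shares was not tested. In fat body 2 the share rose from 23.2% in the weakest part to 48.2% in the part next to the strongest, and was 40.2% in the strongest.

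**Figure D1:**
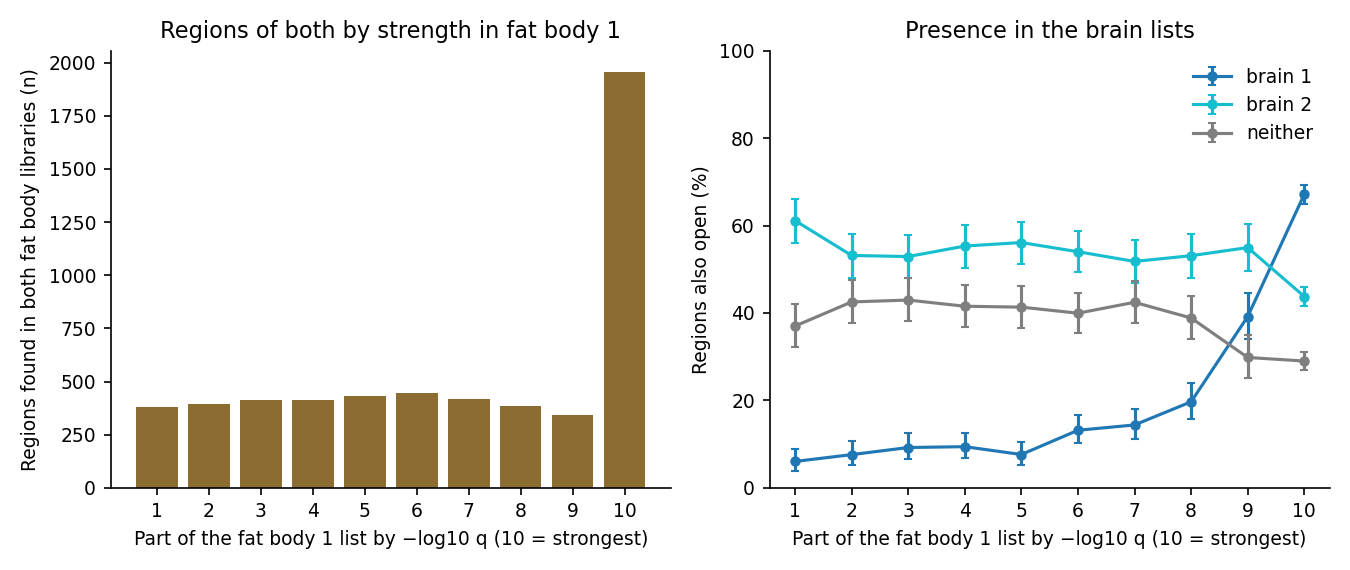
Left, number of regions found in both fat body libraries by part of the fat body 1 list their best peak lies in (bars; 10 is the strongest part by −log10 q). Right, percentage of those regions also open in brain 1, in brain 2 or in neither (points, with exact binomial 95% intervals). The strongest part holds 1958 regions, and presence in brain 1 runs from 6.04% in the weakest part to 67.2% in the strongest.

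Ranks in the fat body libraries went together in the strongest part of fat body 1 and not outside it. Among the 1958 regions of the strongest part, the within-list ranks of the best peaks in fat body 1 and fat body 2 had a Spearman's rho of 0.73. Among the 3628 regions of the lower 9 parts the same rho was -0.01. The ranks of fat body 2 and brain 2 went the other way, with a rho of 0.24 over the 857 regions of the strongest part that brain 2 shared and 0.67 over the 1984 shared regions of the lower 9 parts. Fat body 1 and brain 1, the other pair that shares a number, did not follow this course, with 0.28 over 1315 shared regions of the strongest part and 0.08 over 492 of the lower 9. The classes are cut on the fat body 1 rank, which narrows its range within each. Over all shared regions rho was 0.60 for fat body 1 with brain 1 (1807 regions) and 0.57 for fat body 2 with brain 2 (2841 regions). For fat body 1 with fat body 2 it was 0.23 over all 5586. These are descriptions over regions of the same few libraries and carry no p. The part of the library number in this result was not tested.

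Summits showed the same division by strength in fat body 1. The summits of the best peaks in fat body 1 and fat body 2 lay a median of 77 bp apart (quartiles 26 and 238), at the same base in 203 regions and within 100 bp in 56.3%. In the strongest part the median distance was 27 bp and 89.4% lay within 100 bp. In each of the lower 9 parts the median was between 138 and 159 bp, and between 35.6% and 41.5% lay within 100 bp. Of the 203 shared bases, 187 belonged to the strongest part. Peak width moved with this: the median fat body 2 peak was 279 bp wide in regions of the strongest part and 738 bp in the others. Within fat body 2 peaks of 201 to 300 bp the median distance was still 21 bp for the strongest part and 87.5 bp for the lower 9 parts, and within 701 to 800 bp it was 45 and 146 bp. In the widest class of these peaks both medians were large, 284 and 371 bp. Ranking by strength in fat body 2 instead gave no such division. The median distance was 75.5 bp in the strongest part of fat body 2, with 55.7% within 100 bp. Over the 10 parts of that list the median lay between 57 and 112 bp. Neither library's summit lay to one side, since that of fat body 1 was at the higher coordinate in 2733 regions and at the lower in 2650.

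**Figure D2:**
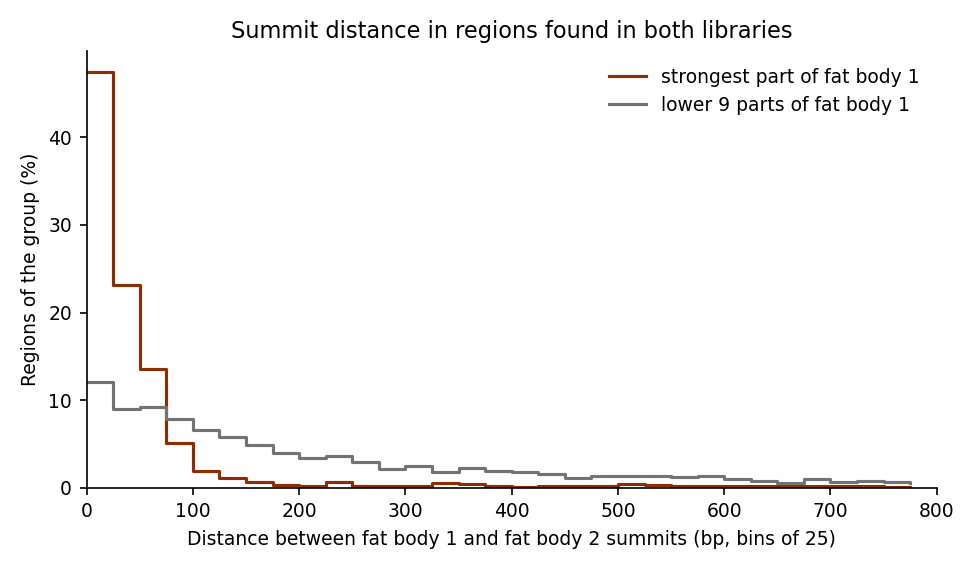
Distance between the fat body 1 and fat body 2 summits in regions found in both, in bins of 25 bp up to 800 bp, as a percentage of the regions in each group. The strongest part of fat body 1 (1958 regions) is concentrated near 0, with a median of 27 bp, and the lower 9 parts (3628 regions) spread out with a median of 147.5 bp.

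The reads behind these summits can be read from fold and p together. Taking fold as the pile-up plus 1 over the background plus 1, the median pile-up over the strongest part was 224 reads in fat body 1 and 59 in fat body 2. Over the lower 9 parts it was 34 and 41 reads. The difference in fat body 1 is fixed by the division on its −log10 q, and that in fat body 2 was smaller. A pile-up depends on the fragment length that the peak caller assumed, so it is not compared between libraries. In fat body 1, 656 regions had a −log10 p of 250 or more, beyond the range searched, and were ranked above the others for these medians.

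Fold enrichment at the summit had a median of 4.76 in fat body 1 (quartiles 3.55 and 12.1) and 9.17 in fat body 2 (6.80 and 12.7). In the strongest part these medians were 15.3 and 9.50, and in the lower 9 parts 3.82 and 8.996. The large gap in fat body 1 follows from ranking on that library, whereas the folds of fat body 2 were close in both classes.

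The next comparison was how many of these regions were also open in brain, which the rule used only to merge peaks. The 105 regions joined through a brain peak are open in brain by construction, and without them the shares below were 31.6% for brain 1 and 50.2% for brain 2. Brain 1 had a peak in 1807 of them, or 32.3% (31.1 to 33.6), where 27.9% of all merged regions did. Brain 2 had a peak in 2841, or 50.9% (49.5 to 52.2), where 8.84% of all merged regions did. Both brain lists had 1075 (19.2%, against 3.45% of all merged regions), and neither had 2013 (36.0%, against 66.7%). At least 1 brain list had 3573 (64.0%, against 33.3%). Of all merged regions with a fat body 1 peak, whatever fat body 2 showed, 20.4% were in a brain list. Of those with a fat body 2 peak, whatever fat body 1 showed, 58.3% were. Brain 1 alone had 732 (13.1%, against 24.5%), and brain 2 alone had 1766 (31.6%, against 5.39%). All merged regions include those with no fat body peak, so fat body regions of 1 library are the closer reference.

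Set beside those, the regions of both libraries had the highest share in brain 1 but not in brain 2. Of the 98318 regions of fat body 1 without fat body 2, 17.7% were in brain 1 and 2.81% in brain 2. Of the 9138 regions of fat body 2 without fat body 1, 3.58% were in brain 1 (3.21 to 3.98) and 53.2% in brain 2 (52.2 to 54.2). The 50.9% of the regions of both was thus no higher than the 53.2% of fat body 2 without fat body 1. Presence in both brain lists was 19.2% (18.2 to 20.3) for the regions of both, 2.62% for fat body 1 without fat body 2 and 2.003% for the reverse. The width of the merged region, brain peaks included, also differed between these classes. Its median was 780 bp for the regions of both, 182 bp for fat body 1 without fat body 2 and 692 bp for the reverse. The order of these widths was not that of the shares in brain 1 or in both brain lists. The part of width in the shares was not tested. With 2 libraries per tissue the smallest two-sided p of an exact permutation test over libraries is 0.333, so no test is given.

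Presence in brain 1 followed strength in fat body 1. It was 67.2% (65.0 to 69.2) in the strongest part, 39.2% (34.0 to 44.6) in the part below and between 6.04% and 19.7% in the 8 weaker parts. Presence in brain 2 was 43.8% (41.6 to 46.0) in the strongest part and between 51.8% and 61.2% in the lower 9. Within fat body 2 peaks of 201 to 300 bp it was 32.0% in the strongest part and 36.6% in the lower 9. Within 301 to 400 bp these shares were 56.6% and 57.8%. In some wider classes the order was reversed, as with 35.5% of 31 regions and 12.2% of 508 at 901 to 1000 bp. The part of peak width in this contrast was not tested. By strength in fat body 2 instead, presence in brain 2 climbed from 27.1% (22.5 to 32.2) in its weakest part to 68.5% (64.6 to 72.2) in its strongest, and presence in neither brain list fell from 59.9% to 18.9%. Presence in brain 1 ran from 21.5% to 37.7% between the same parts, with 42.8% in the part next to the strongest. Presence in a brain list thus varied most with strength in the fat body list of its own number. Where a fat body and a brain summit fell in 1 region, they lay a median of 42 bp apart for fat body 1 with brain 1, 91 bp for fat body 2 with brain 2, 64 bp for fat body 2 with brain 1 and 146 bp for fat body 1 with brain 2. These medians are over different sets of regions. Over the 1075 regions open in all 4 lists they were 42, 75, 61 and 104 bp in the same order. The fat body summits lay a median of 45 bp apart there. With the 11572 best peaks of every list, presence in brain 1 was 54.4% and the fat body summits lay 26 bp apart. The share of all merged regions in brain 1 was not computed for those cut lists.

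Regions were a median of 780 bp wide (quartiles 539 and 988, range 216 to 4169 bp). Those of 500 to 1000 bp made up 55.2%, and 230 were 1500 bp or wider. Merging widens a region, since the best peak in it was a median of 249 bp wide in fat body 1 and 559 bp in fat body 2. A single peak of fat body 1 lay in 4823 regions, 2 in 711, 3 in 46 and 4 in 6, while fat body 2 had 2 peaks in only 19. In the strongest part of fat body 1 the order of the best peak widths was reversed. Medians there were 364.5 bp in fat body 1 and 279 bp in fat body 2. In the lower 9 parts they were 177 and 738 bp.

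Presence in brain 2 varied more widely with the width of the fat body 2 peak than with its strength. Of the narrowest fat body 2 peaks, 201 to 300 bp wide, 62.0% lay in regions of both libraries (59.9 to 64.0), although a narrow peak has the least room to be overlapped. Between 401 and 1000 bp the share was 28.8% to 33.9%. Of the regions with such a narrow peak, 81.1% belonged to the strongest part of fat body 1, against 5.75% at 901 to 1000 bp. Presence in brain 2 rose from 32.9% (30.4 to 35.4) at 201 to 300 bp to 83.7% (80.0 to 86.9) at 601 to 700 bp. It then dropped to 44.1% at 801 to 900 bp and 13.5% (10.8 to 16.7) at 901 to 1000 bp, and was 62.6% (56.8 to 68.1) above 1100 bp. The same course was seen in fat body 2 peaks outside the regions, with 31.1%, 80.4%, 36.2%, 10.8% and 56.4% in brain 2 at those widths, so it is not particular to the regions of both. At 901 to 1000 bp, 78.1% of the regions were open in neither brain list.

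**Figure D3:**
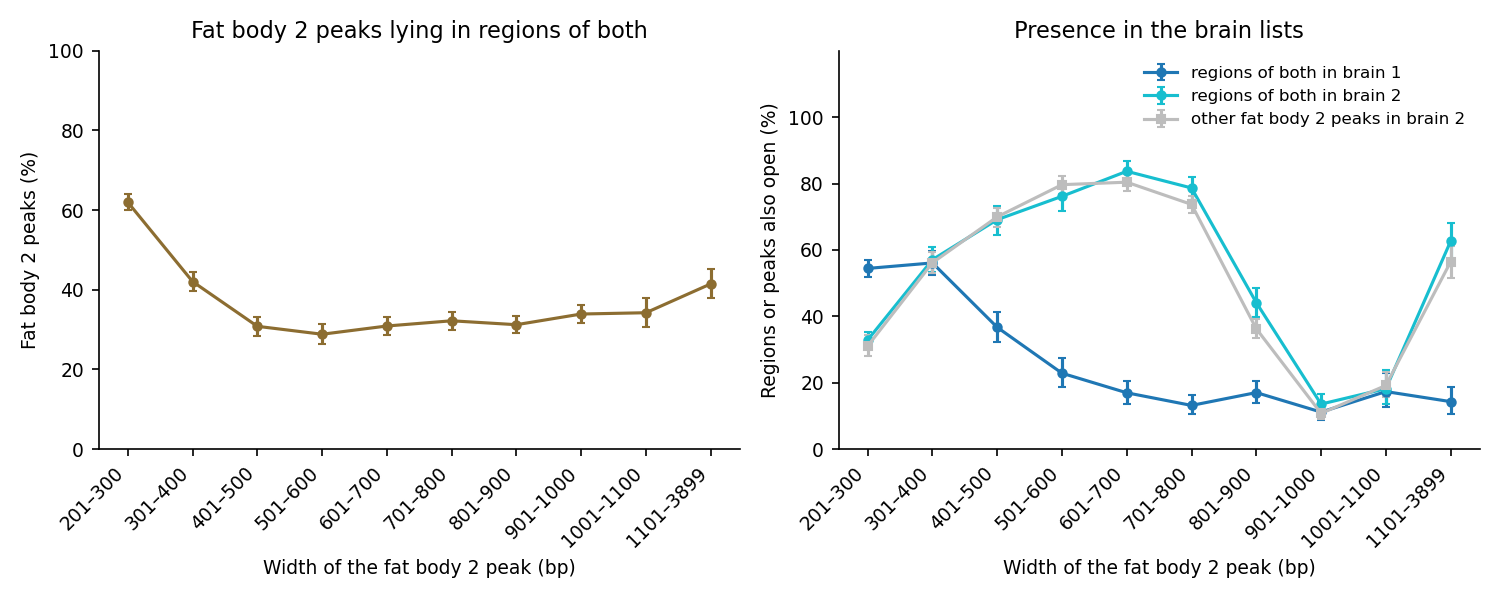
Left, percentage of fat body 2 peaks that lie in regions of both fat body libraries, by the width of the peak in bp. Right, percentage of the regions of both that are also open in brain 1 or brain 2, and of the other fat body 2 peaks that are in brain 2, on the same width axis (points, with exact binomial 95% intervals). Presence in brain 2 peaks at 83.7% for widths of 601 to 700 bp and falls to 13.5% at 901 to 1000 bp.

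Long sequences 1 to 28 of the assembly (BHWX01000001.1 to BHWX01000028.1) held 5558 of the regions, and 19 unplaced sequences held the other 28. The length of a sequence was taken as its reach, the highest peak end in any list. Over a total reach of 445 Mb there were 12.5 regions per Mb, and the regions covered 1.00% of it. Counts per sequence ran from 113 on sequence 1 to 269 on sequence 24. Density was highest on sequences 28 (17.4 per Mb), 2 (17.2 per Mb) and 26 (16.4 per Mb), which are among the shorter ones. It was lowest on sequences 1 (5.48 per Mb), 4 (9.99 per Mb) and 13 (10.2 per Mb), against a median of 12.9 per Mb over the 28 sequences.

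Counts followed sequence length for one fat body list and not for the other. Over the 28 sequences Pearson's r with reach was 0.86 for fat body 1 peaks and 0.20 for fat body 2 peaks, and 0.39 for the regions of both (Spearman's rho 0.84, 0.13 and 0.42). Without sequence 1 these r were 0.98, 0.32 and 0.67. Fat body 2 had between 388 and 830 peaks on every long sequence, whether it reached 8.36 or 21.5 Mb. Fat body 1 had 146 peaks per Mb on sequence 1 and between 230 and 267 per Mb on the others. Regions of the strongest part had an r of 0.70 (0.77 without sequence 1). They made up 52.2% of the regions on sequence 1 and 54.0% on sequence 10, but 16.3% on sequence 28. Presence in brain 1 was lowest on sequences 28 and 26, at 22.8% and 22.9%, and highest on sequence 10, at 48.0% (40.96 to 55.1). Presence in brain 2 ran from 41.3% on sequence 15 to 59.0% on sequence 2.

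**Figure D4:**
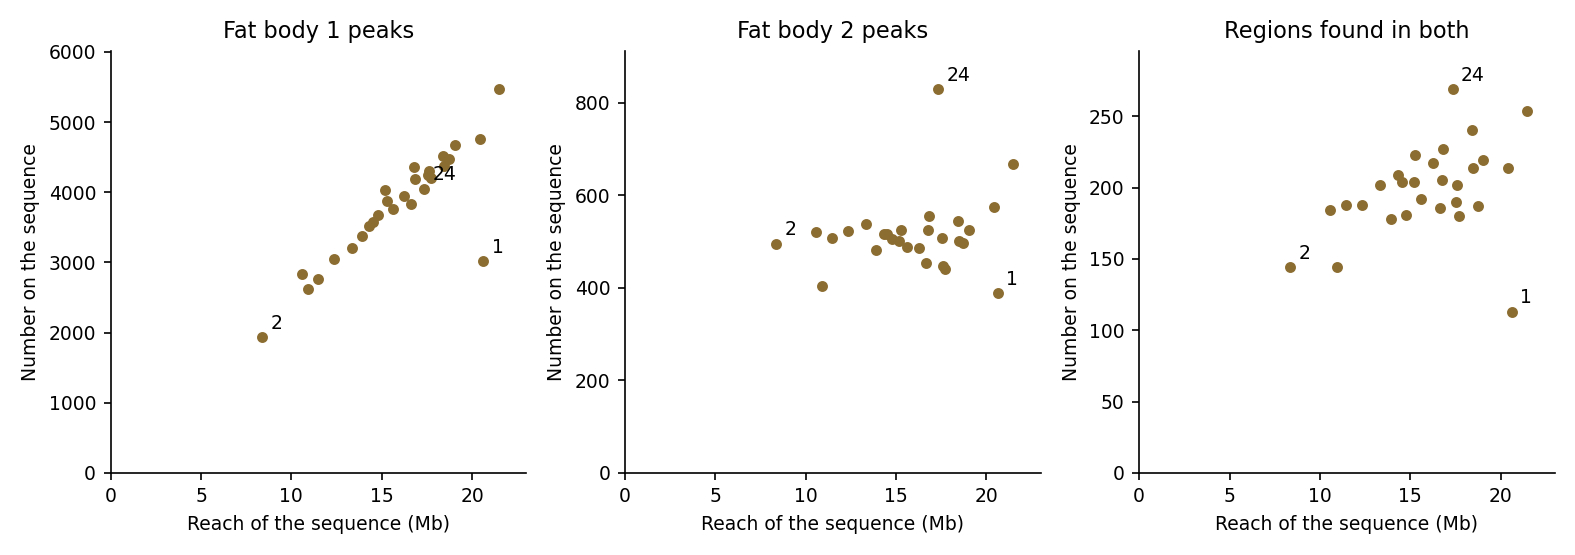
Number of fat body 1 peaks, fat body 2 peaks and regions found in both on each of the long sequences 1 to 28 (points), against the reach of the sequence in Mb. Sequences 1, 2 and 24 are marked. Fat body 1 counts line up with reach (r = 0.86), fat body 2 counts do not (r = 0.20), and sequence 1 lies lowest in the right panel with 113 regions.

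Along the sequences, cut into 10 parts of equal reach, fat body 1 peaks were spread almost evenly, with 9.64% to 10.2% in each part. Fat body 2 peaks were fewest in the middle, with 7.49% in part 5, and most frequent in parts 2 and 9, with 12.05% and 12.4%. The regions of the lower 9 strength parts had a like profile, with 7.35% in part 5 and 12.6% and 13.0% in parts 2 and 9. Regions of the strongest part were arranged the other way, with 12.4% in part 6 and 7.27% in part 9. The classes by strength in fat body 1 thus had different profiles, untested, and sequence orientation and chromosome structure were not analysed here.

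**Figure D5:**
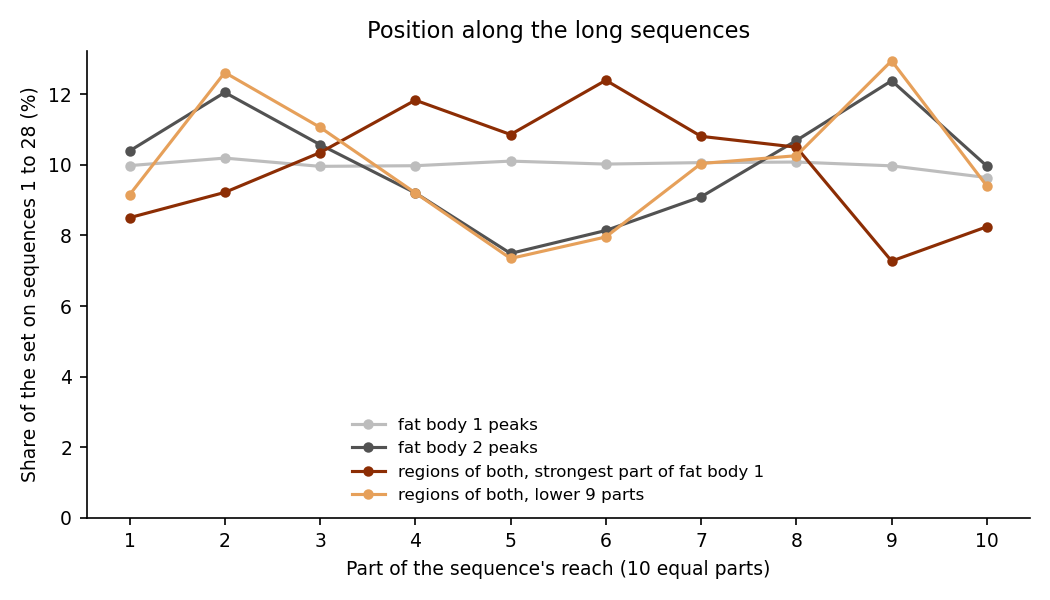
Share of fat body 1 peaks, fat body 2 peaks and both strength classes of the regions in each of 10 equal parts of the reach of long sequences 1 to 28. Regions of the strongest part are most frequent in part 6 (12.4%), and those of the lower 9 parts in parts 2 and 9 (12.6% and 13.0%).

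Neighbouring regions lay a median of 49.99 kb apart (quartiles 20.6 and 102 kb, 5539 gaps). Gaps under 1 kb were rare, at 40, and 12.01% were under 10 kb, while 27 were 500 kb or longer. On sequence 1 the median gap was 98.0 kb, against 49.5 kb on sequences 2 to 28. With the 11572 best peaks of every list the median over all sequences was 107 kb. The longest gap without a region of both libraries ran over 1098 kb of BHWX01000001.1, from 11531584 to 12629899, and yet held 154 peaks of fat body 1 and 9 of fat body 2. The next lay on BHWX01000010.1 from 137267 to 1001441 with 212 and 10 peaks, and on BHWX01000001.1 from 3642807 to 4479283 with 121 and 13. These gaps were therefore not free of peaks in either fat body library.

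In windows of 100 kb, 1374 of 4460 (30.8%) had no region of both libraries, 1544 had 1 and 66 had 5 or more. The fullest window, from 6800001 to 6900000 on BHWX01000025.1, held 8 regions within 79.6 kb. Of these, 6 belonged to the strongest part, 4 were open in brain 1, 5 in brain 2 and 3 in neither. All 8 peaks of fat body 2 in that window lay in regions of both. The next window, from 13400001 to 13500000 on BHWX01000008.1, was 1 of 2 with 7 regions and the first of them in order. In it 1 region belonged to the strongest part, 1 was open in brain 1, 4 in brain 2 and 2 in neither.

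The regions with the best mean rank over both fat body lists were mostly open in brain too. Of the 6 best, 5 were in both brain lists and 1 was in brain 1 alone. Over all merged regions 3.45% were in both brain lists and 66.7% in neither. All 6 belonged to the strongest part of fat body 1, where these shares were 39.9% and 29.0%. The first, on BHWX01000014.1 from 4979244 to 4981197 (1954 bp), had summits at 4979875 in fat body 1 and 4980619 in fat body 2, 744 bp apart. The brain 1 summit, at 4979809, lay near the former and the brain 2 summit, at 4980601, near the latter. The region thus held 2 separate high points, each seen as the highest by the libraries of 1 number.

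In the other regions of this group the fat body summits lay between 2 and 56 bp apart. The second, on BHWX01000010.1 from 7858198 to 7859040, had the highest −log10 q of the whole fat body 1 list, 1022, and its fat body summits lay 2 bp apart, at 7858506 and 7858508. Its brain summits, at 7858604 and 7858607, lay about 100 bp away from these. The third, on BHWX01000008.1 from 7207357 to 7207846, was absent from brain 2 and had a fold of 13.2 in brain 1 and, in the fat body lists, of 29.5 and 23.8. The fourth, on BHWX01000010.1 from 9088712 to 9089887, had folds of 19.0 and 12.8 in the brain lists and of 27.0 and 25.3 in the fat body lists, library 1 first. All 4 of its summits lay between 9089630 and 9089650. The fifth, on BHWX01000010.1 from 15055642 to 15056387, had folds of 6.65, 5.68, 24.98 and 19.8 in the same order. The sixth, on BHWX01000002.1 from 987221 to 988361, had folds of 12.2, 6.76, 27.6 and 19.4. The summit of both brain lists was at 987782 and that of fat body 2 at 987779. Its fat body 1 summit, at 987723, lay 56 bp from that of fat body 2. Folds of different lists are on different scales and are set side by side only as a description.

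Strong regions were also found without a peak in one or both brain lists. The best region open in neither brain list, on BHWX01000015.1 from 9780812 to 9781119, had its summit at base 9780958 in both fat body lists. The second, on BHWX01000017.1 from 2860464 to 2860736, was 273 bp wide and had summits 26 bp apart. The third, on BHWX01000021.1 from 11528730 to 11529277, had summits 50 bp apart. At their fat body 2 summits 165, 155 and 174 reads were piled up.

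Of regions in brain 1 without brain 2, the third region above ranked first. The next lay on BHWX01000025.1 from 294762 to 295233, with a fold of 13.0 in brain 1 and folds of 21.1 and 17.6 in the fat body lists. After it came BHWX01000003.1 from 9048943 to 9049632, with 9.56, 25.1 and 17.9. In both, the brain 1 summit lay nearer to that of fat body 1 than to that of fat body 2. Of regions in brain 2 without brain 1, the best lay on BHWX01000004.1 from 2291301 to 2292118, with a fold of 6.42 in brain 2 and folds of 23.8 and 19.4 in the fat body lists. The next, on BHWX01000009.1 from 16755368 to 16755759, had 11.3, 14.2 and 20.5. In the third, on BHWX01000022.1 from 15262884 to 15264398, the fat body 1 summit at 15262997 lay 602 bp from that of fat body 2 at 15263599, and brain 2 had its summit at 15263586.

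The widest regions were built from peaks of very different width. On BHWX01000027.1 from 9283699 to 9287867 (4169 bp), fat body 2 had a peak of 3899 bp and brain 2 one of 3806 bp, whereas the fat body 1 peak was 297 bp wide with a fold of 6.22. On BHWX01000023.1 from 15551796 to 15555262 (3467 bp) it was the fat body 1 peak that spanned the whole region, with a fold of 3.66, and the fat body 2 peak in it was 607 bp wide with a fold of 1.91, the lowest fold of a best fat body 2 peak in these regions. The third, on BHWX01000002.1 from 980143 to 982929, held 4 peaks of fat body 1, 1 of fat body 2, and a brain 1 peak of 2676 bp. Of the other regions with 4 fat body 1 peaks, those first in order were on BHWX01000009.1 from 12011153 to 12013094, open in neither brain list, and on BHWX01000018.1 from 2954176 to 2955823, open in both.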

How the data were processed

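Each of the 4 libraries has 1 deposited peak list. The tools named per the submitters' processing notes are MACS2 2.1.0, deepTools 3.3.0, Bowtie2, Picard and Trim Galore, with no roles. Peak names of fat body 2 carry a mapping quality of 20 and the removal of duplicates. The genome build and read totals: not given in the sources used here. The authors deposited a fold enrichment at the summit, a −log10 p and a −log10 q per peak, and a score of 10 times −log10 p (−log10 q in fat body 2). Peaks were listed per library.

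From these lists, peaks overlapping by 1 bp or more were merged (Python 3.11.15, pandas 2.3.3, scipy 1.17.1). The best peak of a library in a region was that with the highest −log10 q, and ranks are within-list percentiles of it. Pile-ups are whole numbers from 2 to 1000 meeting fold and a Poisson p within a relative tolerance of 2e-05. Merging and pile-up recovery were tested on simulated data. Named regions were the 6 with the best mean rank in both fat body lists, the 3 best per brain class, the 3 widest, the 3 with most fat body 1 peaks, the 3 longest gaps, the 2 fullest windows of 100 kb, and the 3 densest and 3 sparsest sequences. Regions and groupings were chosen with earlier results of these data known, and the comparisons of strength ranks between libraries were added after the values were seen. The alternatives tried were keeping peaks from a −log10 q of 5, the 11572 best peaks of each list, an overlap of 50% of the shorter peak, windows of 250 bp to either side of each summit, the long sequences without sequence 1, the closest pair of summits in a region, and leaving out each library.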

Additional observations from a re-analysis of the deposited data

How the results depend on the processing

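Among the settings that keep all 4 libraries, the equal list length moved the number of regions most. With the 11572 best peaks of each list there were 1838 regions holding 16.0% of those fat body 2 peaks, 54.4% in brain 1, 43.5% in brain 2 and 40.4% in neither, with a median width of 615 bp, gap of 107 kb and summit distance of 26 bp. By construction fewer peaks enter, and weak ones of fat body 1 leave first. Brain shares over all merged regions were not computed with the cut lists, so these shares have no background beside them. Keeping peaks from a −log10 q of 5, the fat body 2 share was 37.1%, and 48.9% of the regions were in brain 2 and 37.4% in neither. With an overlap of 50%, asked of brain peaks too, the share of fat body 2 was 33.2%, presence in brain 2 49.3%, width 761 bp, gap 56.5 kb and summit distance 61 bp. With summit windows these were a share of 40.8%, presence in brain 1 of 30.9%, width 690 bp, gap 45.9 kb and distance 91 bp. On the long sequences without sequence 1, which also leaves out unplaced ones, the share of fat body 2 was 38.8%. Taking the closest pair of fat body summits in each region, the median distance was 72 bp. For these the cause was not tested. Under these settings the other values were within the main interval, or for counts within 1.5 times. Fat body called from 1 library gave 14724 or 103904 regions. For these counts and the next shares, a left-out library still took part in the merge of all 4 lists. Presence in either brain list was 64.0% and ran from 20.4% (without fat body 2) to 58.3% (without fat body 1) with a library left out; by brain library it was 32.3% without brain 2 and 50.9% without brain 1. As a replicate block, counting only brain peaks that touch the fat body peak of the same number, the mean presence in brain was 41.04%, against 41.6% without the block. No model was fitted, so no other paired analysis was made. Requiring the fat body peaks to touch, an alternative chosen after the data were seen, left 5481 regions. The strongest part of fat body 1 kept the shorter summit distance under all 5 alternatives in which it was recomputed, 26 to 27 bp against 117 to 178 bp. Absence from a list may be lack of depth, which peak lists do not give.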

Other observations

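Regions with several fat body 1 peaks were more often open in brain. With 1 peak of fat body 1, 29.3% were in brain 1 and 38.2% in neither brain list (4823 regions). With 2 peaks these shares were 49.9% and 22.8% (711 regions), and with 3 or more they were 39 and 8 of 52 regions. Median width was 742, 1007 and 1497.5 bp, and its part in these shares was not tested. A brain peak can itself join separate fat body 1 peaks into 1 region, so part of this rise can come from the merging itself; how much was not tested.

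The 28 regions on unplaced sequences had median folds of 6.71 and 12.3 in the fat body lists, and 18 of them were in brain 2, 10 in brain 1 and 4 in neither.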
